A study of Rattus norvegicus with 2 samples.

Results

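The proteases that cut the extracellular matrix and shed proteins from the cell surface were examined together with the inhibitors that hold them in check. The set was chosen by gene symbol, with earlier results of these data known, and comprised 34 genes. They were matrix metalloproteinases (Mmp), the membrane-bound Adam and secreted Adamts families, tissue inhibitors of metalloproteinases (Timp), Reck, and the plasminogen activators with their receptor and inhibitor. Of these 34 genes 33 had at least 1 probe set assigned to them alone, out of 14218 such genes on the array, and Adam12 had none. The samples were hippocampal astrocyte cultures from normal Sprague-Dawley rats at embryonic day 18. The control culture carried a vector for red fluorescent protein alone (IRES2-RFP). The 5ppase culture carried a vector for 5ppase joined to the same fluorescent protein (5ppase-IRES2-RFP, spelled 55ppase-IRES-RFP in one label). Active calcium signalling in control is set against no signalling in 5ppase by the study's design. The labels do not spell out 5ppase, name its promoter or say what share of cells carried either vector.

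Matrix metalloproteinases are zinc enzymes made as inactive precursors, and they are activated by removal of a propeptide, often by another protease such as plasmin. Timp proteins block their active sites, and plasmin is itself made from plasminogen by the activators Plat and Plau. In the brain this network remodels the matrix around synapses and vessels, and astrocytes are a known source of several of its secreted members.

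There was 1 array per group and 31099 probe sets on each, so no test was possible, no value carries a replicate error and every difference describes these 2 arrays. Signals are linear array units of the brightest probe set of a gene. They can be compared between the arrays but not between genes. A signal floor of 62 was set at the 40th percentile of both arrays pooled. A gene was compared when neither array placed it under the floor and at least 1 array showed it at or over the 60th percentile, 208. Differences are log2 ratios of 5ppase over control. The 1881 genes with a second compared probe set gave an SD of 0.26 per probe set for this ratio, which covers probe noise and not differences between cultures. The 3′ to 5′ signal ratios of control genes are a sign of RNA integrity. In control and 5ppase they were 1.84 and 1.69 for beta-actin, 1.10 and 1.05 for GAPDH and 4.04 and 4.02 for hexokinase.

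The markers of the labelled cell type were present but not all of them. The astrocyte intermediate filament Gfap read 17525 in control against 7408 in 5ppase (-1.24), while the glutamate transporter Slc1a2 lay under the floor on both arrays at 24.1 and 25.7. Of 19 astrocyte markers on the array 15 averaged above the floor over both arrays (called measured), with 11 lower and 4 higher in 5ppase. The summed signal of all 19 was 87616 in control and 60686 in 5ppase. No marker of any cell type below was at exactly 0, but neither was any probe set. The lowest signal was 0.1 in control and 0.2 in 5ppase. Fabp7 (-2.01) and Mlc1 (-1.30) were also at least 2-fold lower. Of 19 fibroblast and meningeal markers 16 were measured, 10 lower and 6 higher, with sums of 187679 and 179360. Without Postn, at 21161 and 14111, these sums were close to level, at 166518 and 165249. Mgp (-3.26) and Igfbp5 (-2.06) were at least 2-fold lower. Among 19 microglial and macrophage markers 13 were at or under the floor on both arrays, Itgam at 9.6 and 5.6 and Cx3cr1 at 13.0 and 11.0 among them. The 4 measured ones were all higher in 5ppase, and the sums were 2883 and 4628, with Tmem119 at 1078 and 2273. Without Tmem119 the sums were 1805 and 2355. Neuron markers summed to 10708 and 16143, with 8 of 20 measured, 3 higher (Stmn2 at 1.55 and Tubb3 at 1.72) and 5 lower (Gad1 at -1.24). Without Stmn2, at 3766 and 11065, the neuron sums were 6942 and 5078. Sums were 3124 and 2711 for endothelial and pericyte markers, of which 6 of 19 were measured, 3 each way (Ocln at -1.66, Cspg4 at 1.27), and 1912 and 2327 without Ocln. They were 4271 and 2669 for oligodendrocyte markers, with 6 of 18 measured, 2 higher and 4 lower. Without Cldn11, at 1371 and 47.2, those sums were 2900 and 2622. Of 19 cell cycle genes 18 were measured and 17 were higher in 5ppase, among them Ccnb1 (2.13), Ube2c (1.48) and Kif20a (1.37), and the sums were 6246 and 7942. The only lower gene, Pcna, made up most of both sums, at 4508 and 4371 (-0.044). The part of these shifts in the protease values was not tested, and in a bulk culture fewer cells of a type and less RNA per cell cannot be told apart.

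Most of the compared proteases and inhibitors, 17 of 21, were within 1.5-fold between the arrays, and 1 of them, Mmp3, was far lower in 5ppase. Of the 33 genes on the array 21 were compared. A further 4 exceeded the floor on each array without reaching 208 (Mmp11, Mmp16, Adam8 and Plaur), 2 were above the floor on the 5ppase array only and dim (Mmp12 and Timp4), and 6 were at or under it on both (Mmp7, Mmp9, Mmp10, Mmp13, Mmp15 and Adam9). Among compared members Mmp3 alone was 2-fold or more apart, 4.76% of the 21 beside 2.92% of all 8261 compared genes. At 1.5-fold, 4 of 21 (19.0%) were apart beside 10.7% of all compared genes. Adam15, Adamts5 and Mmp23 were higher by that much, 14.3% beside 5.25%, and Mmp3 was lower, 4.76% beside 5.46%.

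**Figure D1:**
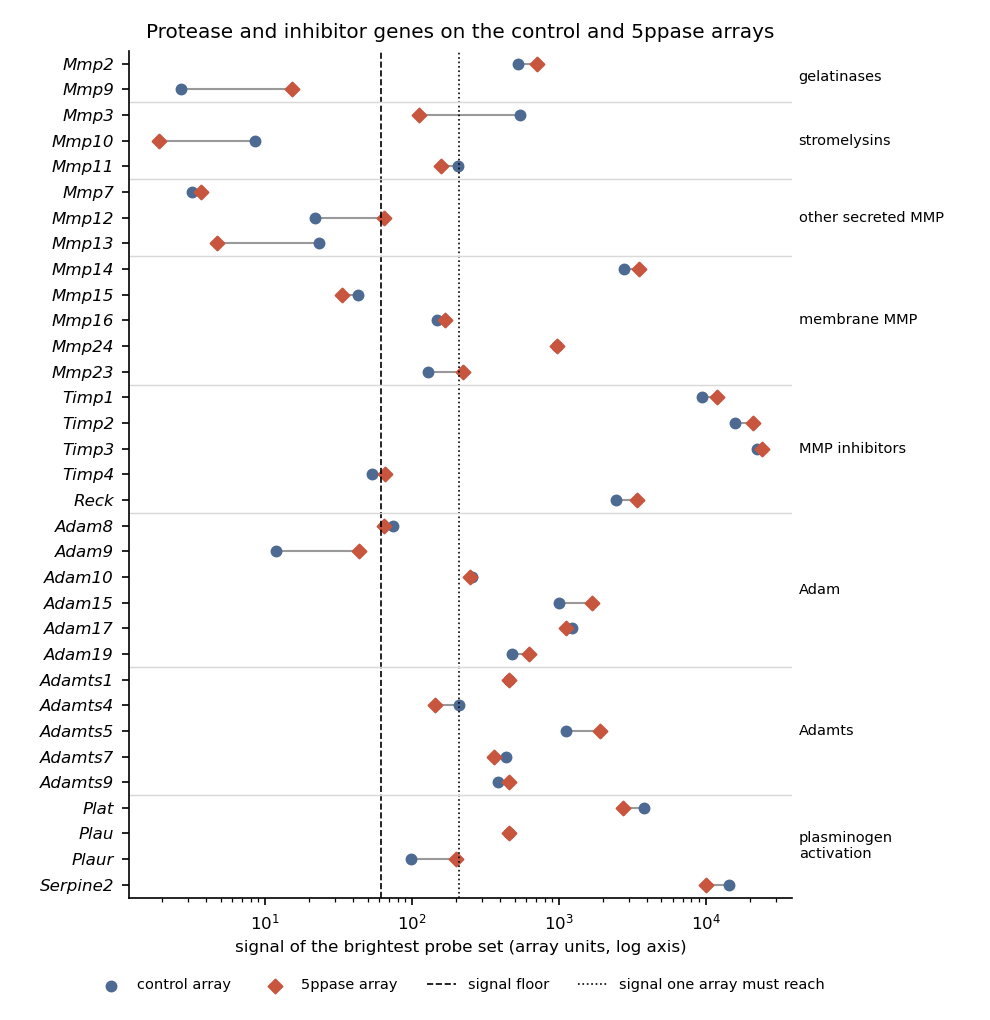
Signal of the brightest probe set of each of the 33 genes on the control array (circles) and the 5ppase array (diamonds), in array units on a log axis, grouped by role; the dashed line is the floor of 62 and the dotted line the 208 that at least 1 array had to reach. Signals compare the arrays within a gene, not genes with each other; the Mmp3 signals lie widest apart among genes above the floor on both arrays, and 6 genes lie at or left of the floor on both.

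Counted at any size, 14 of the 21 compared members (66.7%) were higher in 5ppase, beside 47.9% of all compared genes. For 25 members the mean of both arrays exceeded the floor. Their median log2 ratio was 0.11, beside -0.012 over all 10255 measured genes, and 16 were higher and 9 lower. That split was 13 and 12 when the arrays were scaled to a common median, where Mmp24, Adamts1 and Plau, all close to 0, turned, and 12 and 12 when probe sets with a special suffix, which may read several transcripts, were left out. Over the scalings and probe set rules the median ran from -0.026 to 0.147. Of the 10 members with several probe sets above the floor on both arrays, 4 (Adam19, Adamts5, Mmp24 and Timp2) had ratios of the same sign at all of them and 6 did not.

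**Figure D2:**
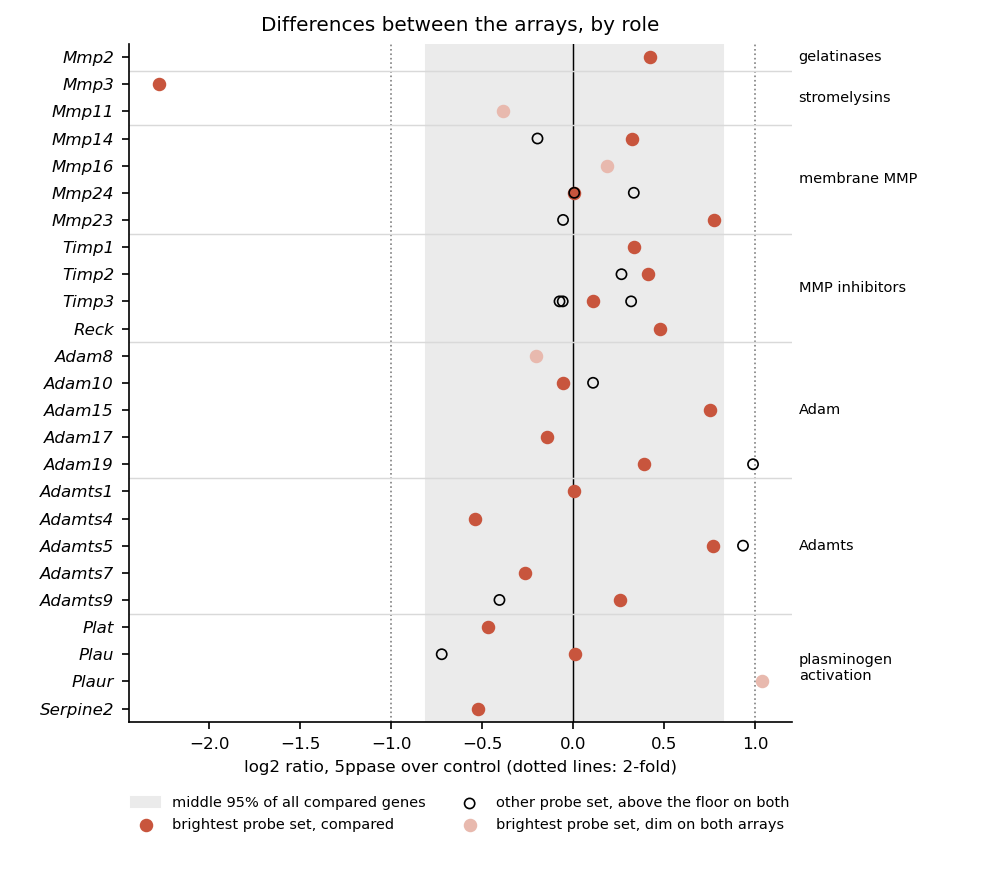
Log2 ratio of 5ppase over control for the 25 genes above the floor on both arrays, by role: filled points are the brightest probe set (pale where the gene was too dim to be compared), open circles the other probe sets above the floor, and the grey band the middle 95% of all 8261 compared genes. The filled points of Mmp3 and the dim Plaur lie outside the band, as do the open circles of Adamts5 and Adam19. Both probe sets of Adamts5 lie far to the right, whereas the open circles of Mmp23, Plau, Adamts9 and Adam19 lie far from their filled points.

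Mmp3, stromelysin 1, is a secreted protease that cuts proteoglycans, fibronectin and laminin and activates other metalloproteinases. Its only probe set gave 545 in control and 112 in 5ppase, a log2 ratio of -2.28, or 4.85-fold lower. Of the 3471 compared genes with a mean signal within 2-fold of its own, 0.0576% had a ratio this large in either direction, Mmp3 included. The 5ppase value lies between the floor and 208. Raising the floor to the 60th percentile left only a bound, -1.39, because the 5ppase signal was raised to that floor. The ratio ranged from -2.31 to -2.24 over the scalings of the arrays. Stromelysin 3, Mmp11, a protease released in active form, gave 205 and 157 (-0.38) and just missed the compared genes.

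In the rat genome Mmp3 belongs to a cluster of 10 Mmp genes on chromosome 8, of which 6 were on the array. The order in RefSeq is Mmp13, Mmp12, Mmp3, Mmp10, Mmp8 and Mmp7 for those 6. The other 5 lay under or close to the floor. Mmp10, stromelysin 2, gave 8.6 in control and 1.9 in 5ppase, and Mmp13, a collagenase, gave 23.2 and 4.7. The collagenase Mmp8 gave 26.0 and 3.4, and Mmp7, matrilysin, 3.2 and 3.7. All 4 were under the floor on both arrays, where signals have no order and no fold is given. Mmp12, the macrophage elastase, was at 21.9 and 64.8, the second value barely above the floor, beside macrophage markers that were mostly under it.

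Promoters of inducible Mmp genes are known for AP-1 sites, which are bound by Fos and Jun proteins. The 250 bases upstream of the annotated start are shown for Mmp3, the member with the widest difference, for Mmp10 and Mmp13 of the same cluster, both under the floor, and for Plaur, a dim member outside the cluster. The sequences are from RefSeq (GRCr8) on the plus strand, at chr8:12925031-12925280 for Mmp3, chr8:12974457-12974706 for Mmp10, chr8:12782579-12782828 for Mmp13 and chr1:89181113-89181362 for Plaur. Capitals mark TGAGTCA or its reverse complement TGACTCA. Every window shown holds these letters, whereas only 7 of the 27 member windows found did.
Mmp3: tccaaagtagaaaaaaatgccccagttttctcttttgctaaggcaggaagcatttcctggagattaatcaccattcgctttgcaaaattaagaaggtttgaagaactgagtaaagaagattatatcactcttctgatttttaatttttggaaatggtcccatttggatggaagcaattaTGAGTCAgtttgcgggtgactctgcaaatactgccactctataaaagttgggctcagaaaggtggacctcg
Mmp10: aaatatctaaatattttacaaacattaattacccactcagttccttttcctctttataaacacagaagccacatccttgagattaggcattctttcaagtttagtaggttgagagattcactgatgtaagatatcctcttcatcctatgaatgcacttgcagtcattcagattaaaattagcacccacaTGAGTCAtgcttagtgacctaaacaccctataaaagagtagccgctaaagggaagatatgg
Mmp13: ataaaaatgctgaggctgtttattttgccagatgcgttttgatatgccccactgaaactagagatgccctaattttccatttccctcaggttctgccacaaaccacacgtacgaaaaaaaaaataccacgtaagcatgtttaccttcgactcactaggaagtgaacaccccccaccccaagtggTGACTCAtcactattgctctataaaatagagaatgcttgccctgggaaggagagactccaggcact
Plaur: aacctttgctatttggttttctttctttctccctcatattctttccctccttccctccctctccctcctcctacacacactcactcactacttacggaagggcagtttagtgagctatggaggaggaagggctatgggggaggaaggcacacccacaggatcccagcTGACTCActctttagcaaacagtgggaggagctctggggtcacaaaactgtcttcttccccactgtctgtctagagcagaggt

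The AP-1 letters begin 71 bases before the start in Mmp3, 61 in Mmp10, 66 in Mmp13 and 83 in Plaur. In the 3 Mmp promoters TATAAA follows, 32, 33 and 47 bases before the start. Promoter windows were found for 27 members. On either strand TGAGTCA was present in 7 of them (25.9%), beside 4.05% of all 33469 windows of this length. The 7 were Mmp3, Mmp7, Mmp10, Mmp12, Mmp13, Adam19 and Plaur, so all 5 listed genes of the cluster held it, and these 5 also held TATAAA. Outside the cluster only Adam19 and Plaur held TGAGTCA, so the 25.9% rests mostly on neighbouring genes. On either strand TATAAA was in 7 of 27 windows and 12.9% of all. The letters AGGAAG, the core of many Ets sites, were in 10 of 27 (37.0%) on either strand and in 29.5% of all. A match describes letters and is not evidence of a bound site. The members with the AP-1 letters had no common direction: Mmp3 was lower in 5ppase, Adam19 was at 0.39, Plaur was at 1.04 while dim, and the other 4 were at or near the floor.

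Factors of these sites were measured on the same arrays. Fos gave 8260 and 4238 (log2 ratio -0.96), though its dim second probe set gave 73.4 and 129 (0.82). Jun was lower at all of its 3 probe sets, 3105 and 1950 (-0.67) at the brightest, with -0.87 and -0.47 at the others. Fosb gave 326 and 118 (-1.46). The other listed Fos and Jun genes were chosen after their values were seen. Junb stood at -0.77, Jund at -0.15, and Fosl1 and Fosl2, too dim to be compared, at -0.13 and -0.058. A link between these factors and the Mmp3 value was not tested. In the whole list of 26 regulators of protease genes (AP-1 and Ets factors, NF-kappa B and cytokines) 25 were measured, 17 lower and 8 higher (median -0.15). The cytokine Il6 was the 1 member at least 2-fold higher, at 1194 and 2499 (1.07).

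**Figure D3:**
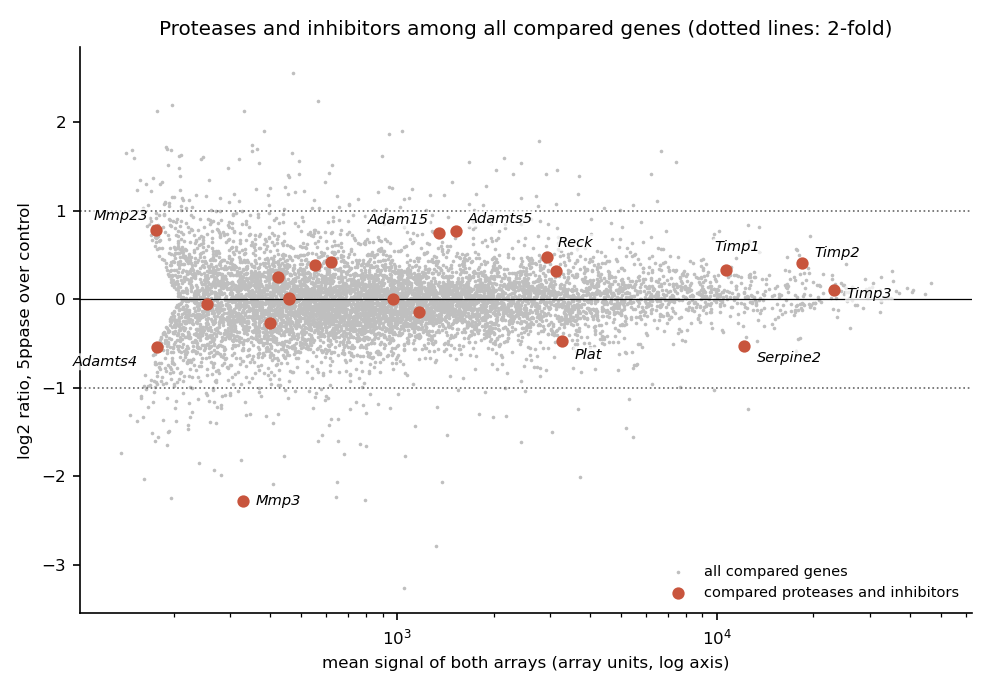
Log2 ratio of 5ppase over control against the mean signal of both arrays (log axis) for all 8261 compared genes (grey) and the 21 compared proteases and inhibitors (red), with dotted lines at 2-fold. Mmp3 at -2.28 stands below nearly all genes of its signal, Adam15 and Adamts5 lie near the upper edge of the cloud, and the bright Timp genes lie within it.

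The gelatinases cut denatured collagen and basement membrane collagen. Mmp2, gelatinase A, gave 532 in control and 711 in 5ppase, a log2 ratio of 0.42, and 19.4% of compared genes of similar signal differed by as much. Its second probe set gave 65.5 and 55.5. Gelatinase B, Mmp9, was under the floor at both of its probe sets, with 2.7 and 15.2 at the brighter and 1.4 and 6.8 at the other.

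Membrane-type metalloproteinases work at the cell surface, where Mmp14 activates the precursor of Mmp2. Mmp14 gave 2787 and 3489 (0.32) at the brighter probe set but 1037 and 906 (-0.20) at the other. Mmp24, a membrane type abundant in neural tissue, was level at 967 and 969 (0.0031), with 0.33 and 0.0063 at the other probe sets. Mmp16 gave 148 and 168 (0.18), too dim to be compared, and Mmp15 gave 42.8 and 33.7. Mmp23, a protease anchored by its amino end, gave 130 and 222 (0.78) at a probe set whose name ends in _s_at, which can also read related transcripts. Its second probe set gave 170 and 164 (-0.055) and the remaining one 63.7 and 40.8, so the 1.5-fold difference of Mmp23 rests on that single probe set. Among 9 Mmp genes outside the list 4 were on the array and 3 were measured. Mmp19, a widely expressed secreted protease, was the only one of them compared, at 201 and 347 (0.79).

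All 4 compared inhibitors of metalloproteinases were slightly higher in 5ppase, each by less than 1.5-fold. Timp1, the inducible inhibitor, gave 9466 in control and 11927 in 5ppase (0.33). Timp2, which also serves Mmp14 in activating Mmp2, gave 15777 and 20983 (0.41), and its second probe set stood at 0.27. Reck, a membrane-anchored inhibitor of several Mmp proteins, gave 2457 and 3422 (0.48) at its only probe set. Timp3, which binds the matrix and also blocks Adam and Adamts proteins, gave 22349 and 24092 (0.11), and its other 3 probe sets gave -0.057, -0.075 and 0.32. The share of compared genes of similar signal that differed at least as much was 16.2% for Timp1, 7.88% for Timp2, 9.88% for Reck and 53.4% for Timp3. Timp4 lay at the floor, at 53.2 and 65.6. All 4 kept their sign under the scalings of the arrays, and Timp3 turned to -0.057 at its second brightest probe set.

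Adam proteins cut growth factors, cytokines and adhesion molecules from the membrane. Adam15, which carries a disintegrin domain that binds integrins, gave 1003 in control and 1689 in 5ppase (0.75, or 1.68-fold) at its only probe set. As a background, 3.45% of the 3273 compared genes of similar signal differed by as much. The main sheddases were close to level. Adam10, the alpha-secretase of the amyloid precursor, gave 259 and 249 (-0.055), and its dimmer probe set stood at 0.11. Adam17, which releases tumour necrosis factor and ligands of the epidermal growth factor receptor, gave 1230 and 1114 (-0.14). Adam19, which cuts neuregulin, gave 480 and 628 (0.39) at the brightest probe set and 81.0 and 161 (0.99) at the second. Its other probe sets were under the floor, as was Adam9, another widely expressed sheddase, at 11.9 and 43.5. Adam8, known from immune cells, was just above it at 74.5 and 64.7 (-0.20).

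Partners that carry Adam10 and Adam17 to the surface had 8 of 9 genes measured, of which 5 were higher, 3 were lower and the median was 0.42. The brightest were the scaffold Dlg1 at 3727 and 3511 (-0.086) and Frmd8, which stabilises the iRhom proteins, at 972 and 1247 (0.36). Tspan17, a tetraspanin partner of Adam10 chosen after its values were seen, gave 596 and 1112 (0.90). The other listed tetraspanins, also chosen this way, had no common direction. Tspan15 stood at 0.48, Tspan5 at -0.46, and Tspan33 was under the floor on both arrays. Of 35 membrane proteins known to be shed by Adam10 or Adam17, 26 were measured, of which 12 were higher, 14 were lower and the median was -0.11. Among them Ptprz1, a receptor phosphatase with chondroitin sulfate chains, was the only compared one at least 2-fold apart, at 977 and 323 (-1.60).

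Adamts proteins are secreted and cut proteoglycans such as aggrecan, versican and brevican. Adamts5, an aggrecanase, gave 1125 in control and 1917 in 5ppase (0.77, or 1.70-fold), and its second probe set gave 768 and 1468 (0.93). Of the other compared members at least 1.5-fold apart, Mmp3 and Adam15 had only 1 probe set, and Mmp23 was level at its second (-0.055). Of 3103 genes of similar signal, 3.25% differed by as much as the first probe set of Adamts5. Adamts4, the other main aggrecanase, went the opposite way at a low signal, 209 and 144 (-0.54), just above the 208 needed. At that signal 27.3% of compared genes differed as much. Adamts1, which cuts aggrecan and versican, was level at 456 and 458 (0.0066). Adamts7, known for cutting cartilage oligomeric matrix protein, gave 437 and 364 (-0.27), and Adamts9, a versicanase, gave 385 and 460 (0.26), against 85.4 and 64.5 (-0.40) at the dimmer of its probe sets.

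Of the other Adam and Adamts genes 12 of 17 on the array were measured, of which 7 were higher and 5 lower (median 0.20), and no compared one was 2-fold apart. The brightest were Adamtsl4, a matrix protein without protease activity, at 5465 and 7284 (0.41), and Adamts8 at 1210 and 1475 (0.29). Matrix substrates had 36 of 42 genes measured, 20 higher and 16 lower (median 0.12). At least 2-fold lower were the basement membrane collagen Col18a1 at 2299 and 334 (-2.78) and the phosphoprotein Spp1, a known Mmp3 substrate, at 1659 and 614 (-1.43). The tenascin Tnn was higher at 124 and 541 (2.13). The lectican Bcan, a substrate of Adamts4 and Adamts5 chosen after its values were seen, gave 97.5 and 154.5 (0.66), too dim to be compared.

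In the plasminogen system the activator Plat and the inhibitor Serpine2 were both somewhat lower in 5ppase, and Plau was level at its brighter probe set. Plat, tissue plasminogen activator, gave 3789 in control and 2738 in 5ppase (-0.47), and 10.5% of compared genes of similar signal differed as much. Serpine2, also called glia-derived nexin, inhibits thrombin, Plau and Plat. It gave 14359 and 9990 (-0.52), with 5.30% of 491 genes of similar signal as far apart. Each had only 1 probe set and neither reached 1.5-fold, although Serpine2 came close to it, at -0.58, with the loess trend removed.

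Plau, urokinase, was level at 455 and 459 (0.012) at its brighter probe set and lower at the second, 254 and 154 (-0.72). Plaur, the urokinase receptor, gave 98.1 and 201 (1.04) at a probe set with the _s_at suffix and just missed the 208 needed. The other Plaur probe set read 40.4 and 5.3, under the floor on both arrays.

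Other genes of the plasmin system and other serpins had 14 of 19 measured, 10 higher and 4 lower (median 0.19). Serpina3n, an acute-phase serpin of reactive astrocytes, was the only compared one at least 2-fold apart, at 1072 and 3242 (1.60). Plasminogen itself, Plg, lay around the floor at 72.6 and 52.4.

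Convertases and activators of metalloproteinases had 7 of 11 measured, 4 higher and 3 lower (median 0.06). The brightest were Bsg, a membrane inducer of Mmp genes, at 13040 and 12746 (-0.033), and Pcolce, an enhancer of procollagen cleavage, at 5743 and 7536 (0.39). Astacin, pappalysin and HtrA proteases had 5 of 7 measured, 3 higher and 2 lower, with Htra1 at 13417 and 12953 (-0.051) and Htra2 at 1585 and 1687 (0.09). Cathepsins and cystatins, the lysosomal proteases and their inhibitors, had 12 of 17 measured, 8 higher and 4 lower. None of these 12 was 1.5-fold apart. Cst3, cystatin C, gave 36010 and 37890 (0.073) and Ctsl, cathepsin L, 16774 and 20548 (0.29).

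**Figure D4:**
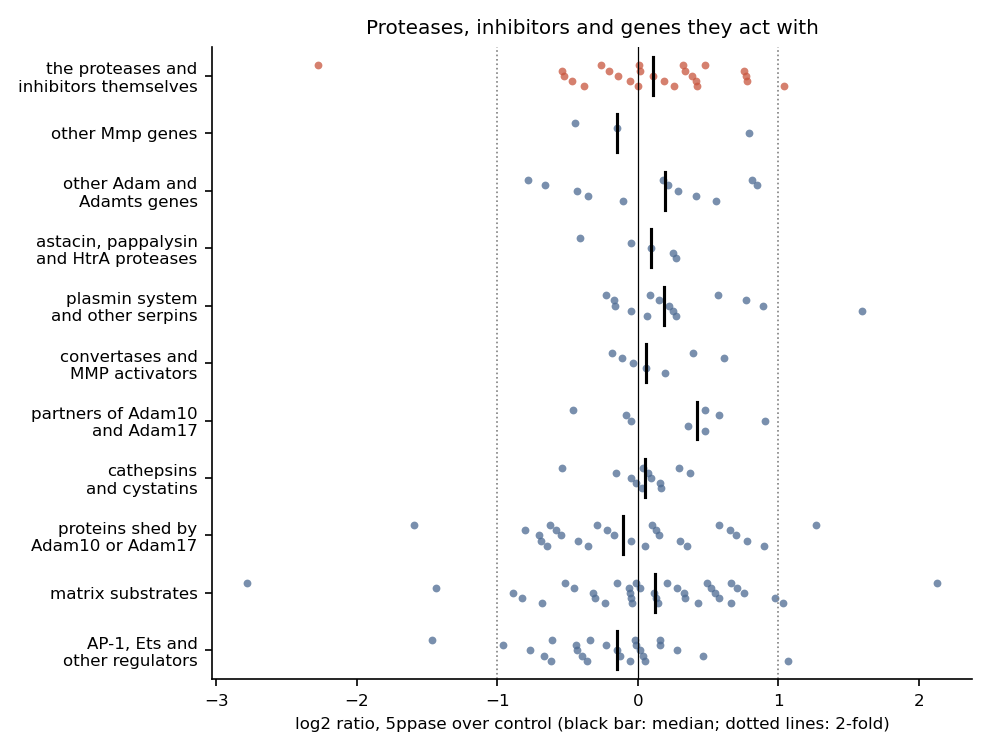
Log2 ratio of 5ppase over control for each gene with a mean signal above the floor, for the proteases and inhibitors (red) and for 10 lists of genes they act with (blue); signals under the floor were raised to it, and black bars are medians. The medians run from -0.15 for the regulators and for the other Mmp genes to 0.42 for the partners of Adam10 and Adam17, and the matrix substrates hold the widest ratios in both directions.

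**Figure D5:**
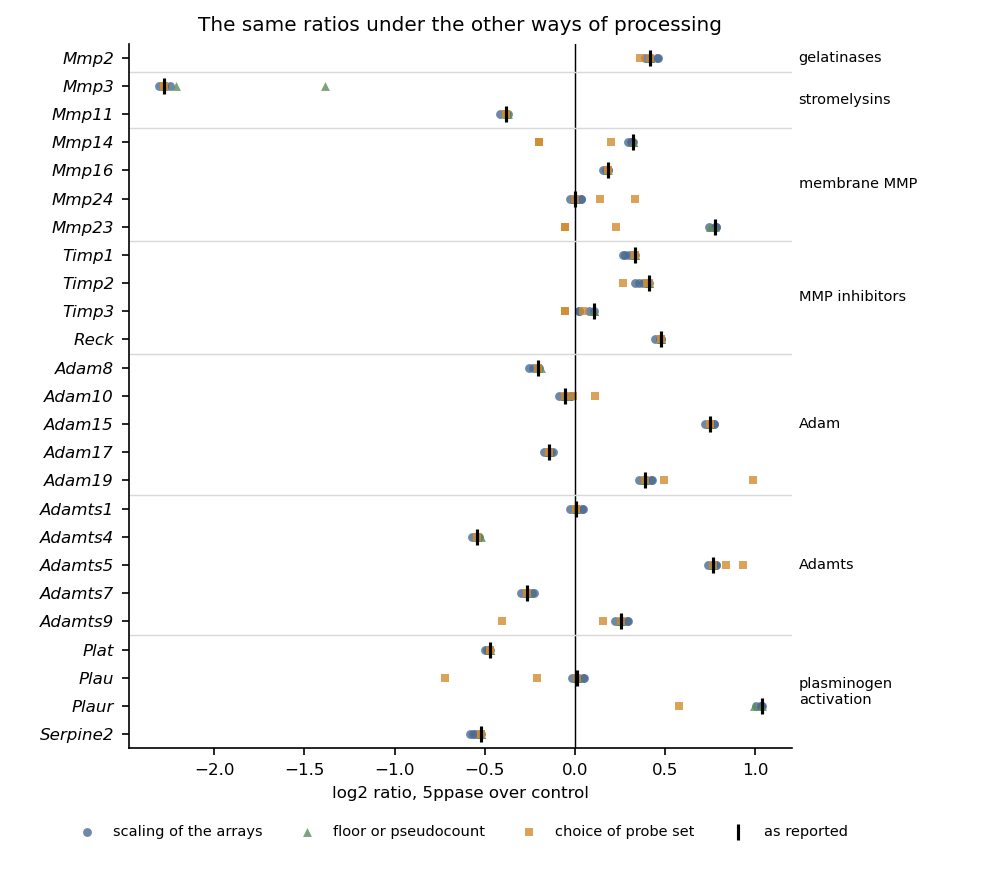
Log2 ratio of the 25 genes above the floor on both arrays as reported (black bar) and under each alternative scaling (circles), floor or pseudocount (triangles) and probe set rule (squares). The scalings leave the points close together, while the choice of probe set moves Mmp14, Mmp23, Mmp24, Adam19, Adamts9, Plau and Plaur. At the higher floor the Mmp3 point is only a bound.

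Under the alternatives that gave it a value, the ratio kept its sign for 17 of these 25 genes. Only 10 of the 25 had a second brightest probe set averaging above the floor, and 6 of those 10 had the opposite sign there. The second probe sets of Mmp2, Adam8 and Plaur averaged under the floor and gave no value. The 8 genes that turned under some alternative were Mmp14, Mmp23, Mmp24, Timp3, Adam10, Adamts1, Adamts9 and Plau. Mmp24, Adamts1 and Plau, all within 0.02 of 0, were the 3 whose sign turned between scalings of the arrays.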

How the data were processed

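Total RNA (6 ug, per the labels) was hybridised as biotin-labelled cRNA to single-colour Affymetrix arrays. The authors deposited linear intensities, 1 per probe set and array, from MAS5 according to the notes on processing that the submitters gave. The MAS5 version was not given in the sources used here. No sample column was unused (0). Of 31099 probe sets 20832 carried 1 gene symbol in the platform annotation, 436 several and 9831 were unlisted; symbols were updated by gene identifier through RefSeq (GRCr8).

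Both arrays were brought to 1 trimmed mean (2% removed at each end), and signals under the floor were raised to it before log2. The probe set with the highest mean stood for a gene. With 1 array per group there is no test. The number of arrays limits the precision. The members and lists were chosen with earlier results of these data known. All members were named; of each other list, up to 4 compared genes at least 2-fold apart (3 for cell type and cell cycle markers), otherwise the 2 brightest, plus Plg, Fos, Jun, Gfap and Inpp5a; 1 further gene is not reported here. Slc1a2, Itgam, Cx3cr1, Cldn11, Postn, Pcna and the cluster gene Mmp8 were chosen after their values were seen. Inpp5a, a phosphatase gene, gave 994 and 1023 at its brighter probe set. Its other probe set gave 10.4 in control, under the floor, and 133.6 in 5ppase. Python 3.11.15, pandas 2.3.3 and statsmodels 0.14.6 were used.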

Additional observations from a re-analysis of the deposited data

How the results depend on the processing

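Counts and the median were recomputed under 10 alternatives, and single members where the setting gave them a value: all 25 under the scalings, 19 at the higher floor and 10 at a second brightest probe set. The median log2 ratio of the members, 0.108, ran from -0.026 without probe sets of special suffix to 0.147 with the mean of all probe sets, and was 0.108 over compared members only, which was chosen after seeing the data. With the floor at the 60th percentile and the 75th required on 1 array, 13 members were compared; 0 were at least 2-fold apart (2.14% of all genes) and 2 at least 1.5-fold (7.67%). Mmp3 was no longer compared there, and its -1.39 is a bound, because its 5ppase signal was raised to the floor. With the second brightest probe set, which Mmp3 lacks, 6 were compared, with counts of 0 (3.45%) and 2 (12.8%). With a pseudocount of 6.4 and no floor or filter these counts were 5 and 10, beside 14.7% and 26.6% of all genes, since members near the floor entered. Under the other 7 alternatives the counts were 1 and 3 to 4. Mmp23 turned to -0.055 with the second brightest probe set and without probe sets of special suffix. Of 227 values of single members 9 more moved by at least the probe set SD, 4 of them to the opposite sign: Mmp14 (-0.196 under both of these settings), Adamts9 (-0.405) and Plau (-0.722) at the second brightest probe set. No paired analysis was possible because each group has 1 array. Low signal limits Mmp7, Mmp9, Mmp10, Mmp12, Mmp13, Mmp15, Timp4, Adam9 and Plaur.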
